A study of Mus musculus with 31 samples.

Results

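The GDNF family of neurotrophic factors and their receptors were followed across laser-microdissected pieces of embryonic mouse olfactory and trigeminal nerve. The members are the 4 ligand genes Gdnf, Nrtn, Artn and Pspn, the 4 co-receptor genes Gfra1, Gfra2, Gfra3 and Gfra4, and the receptor gene Ret. They were chosen by symbol, matched to Ensembl identifiers, and are 9 of the 47729 genes listed in the count table. All 9 passed the filter on low counts and are among the 19332 genes tested.

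All embryos carried the Sox10:Histone2BVenus BAC transgene, whose nuclear fluorescence marked Sox10-expressing cells for dissection, so each piece held glia together with whatever axons, connective tissue and vessels lay in the cut area. The series has 31 RNA-seq libraries in 7 groups: olfactory nerve in the nasal mucosa at E11.5 (4 libraries), E13.5 (7) and E16.5 (4), the olfactory nerve layer (ONL) around the olfactory bulb at E13.5 (5), its outer and inner parts at E16.5 (4 each), and trigeminal nerve branches near the olfactory system at E16.5 (3). At E16.5 each piece of a group came from a different embryo. The paper sampled 4 embryos at this stage and cut trigeminal pieces from sections that also gave olfactory pieces. Pieces of different E16.5 groups therefore share embryos, and the fit of all libraries has no term for embryo. The 4 pieces of E11.5 olfactory nerve came from 2 embryos, the 7 pieces of E13.5 olfactory nerve from 4, and the 5 pieces of E13.5 ONL from 4, so some pieces share an embryo and p-values over these pieces are too small. Library totals ran from 3512627 to 36705535 counts. Depth differed between the groups used below. At E16.5 the trigeminal libraries had 30221586 to 32508725 counts, and those of the other groups 13379107 to 16800784. Olfactory nerve libraries had 24218053 to 36705535 counts at E11.5 and 5297347 to 16413112 at E13.5. Comparisons of members with few counts between these groups are therefore also comparisons between depths.

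The labels of 10 of the 31 libraries, all from E11.5 and E13.5, go against the groups in which the authors averaged them. The authors averaged as E13.5 ONL all 4 libraries whose label reads E11.5 olfactory nerve, plus 1 whose label reads E13.5 olfactory nerve. Another 4, labelled as E13.5 ONL, were averaged as E11.5 olfactory nerve, and the last ONL-labelled library joined 6 nerve libraries of E13.5. Npy, a neuropeptide gene fixed here as an ONL glia marker, lay between 166 and 458 CPM (library-scaled counts, the unit of all levels below) in the 5 libraries averaged as E13.5 ONL and between 0.0543 and 2.44 CPM in the 4 averaged as E11.5 olfactory nerve. The authors' grouping is used below, and results on the 2 earlier stages are also given with the libraries grouped by label. The E16.5 groups are the same either way, but their tests share 1 estimate of spread with the earlier libraries, and 5 E16.5 calls named below were lost when those were grouped by label.

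GDNF family ligands are secreted dimers of the TGF-beta superfamily. Each binds a preferred co-receptor held in the membrane by a lipid anchor (GDNF binds GFRalpha1, neurturin GFRalpha2, artemin GFRalpha3 and persephin GFRalpha4), and the complex activates the receptor tyrosine kinase RET. GFRalpha1 can also bind GDNF without RET, together with the adhesion molecule NCAM. In the peripheral nervous system the family is known for its roles in enteric, autonomic and sensory neurons and in the glia that accompany their axons.

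In the GRCm38 assembly with GENCODE M21 annotation, the ligand genes lie at chr15:7810846-7837575 (Gdnf), chr17:56751325-56757530 (Nrtn), chr4:117926162-117929763 (Artn) and chr17:56999457-57000018 (Pspn). Ret lies at chr6:118151745-118197718. The co-receptor genes lie at chr19:58235604-58455909 (Gfra1), chr14:70890120-70979838 (Gfra2), chr18:34689898-34720387 (Gfra3) and chr2:131039632-131043088 (Gfra4). Only Gfra1 and Gfra4 share exon bases with another annotated gene. Gfra1 shares 416 bases with the antisense gene Gm16277, from which its reads cannot be told apart if counting ignored strand, and Gfra4 shares 80 bases with Mir6973b.

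Gfra1, Gfra2 and Gfra3 were the abundant members, and their balance differed between territories. Gfra3 was highest in the trigeminal nerve, Gfra2 was high in both E16.5 nerves and low in the ONL, and Gfra1 was higher in the ONL than in the olfactory nerve. Ret and the 4 ligands were low in every group: no group mean of these 5 genes exceeded 10.2 CPM.

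**Figure D1:**
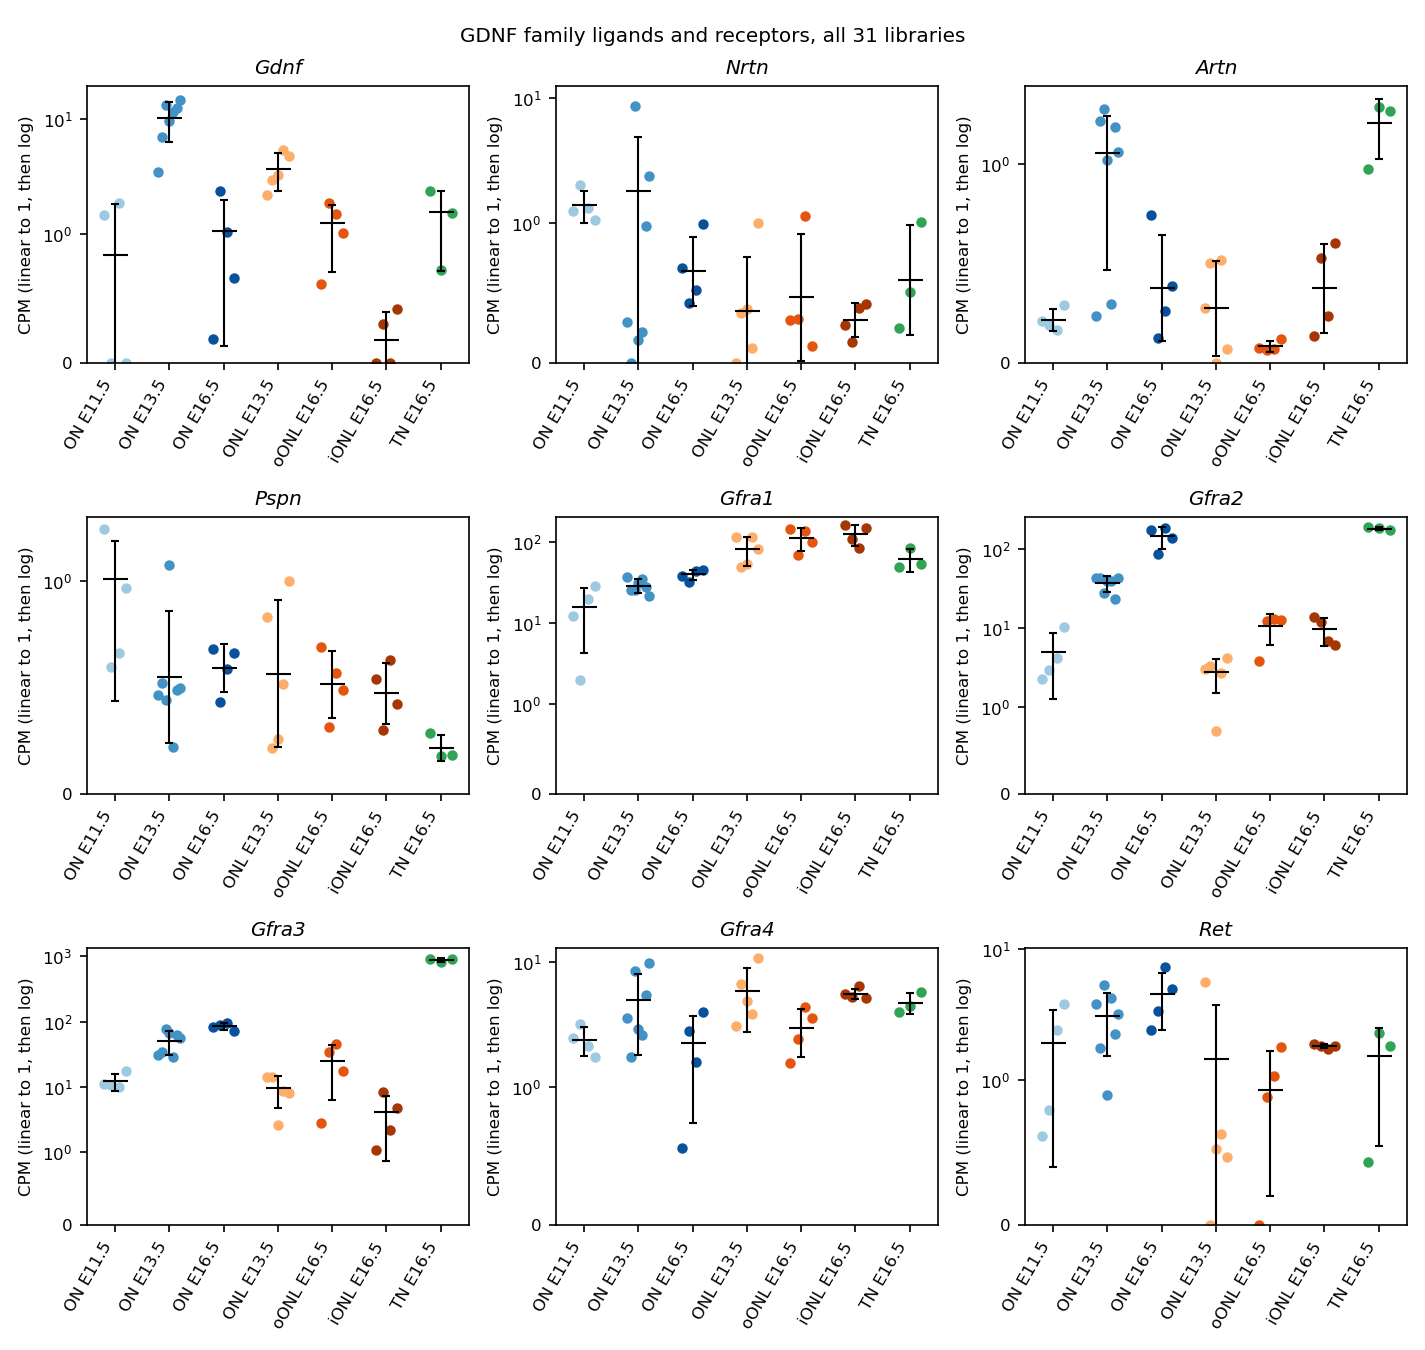
Level of each of the 9 members in all 31 libraries, as CPM on an axis that is linear up to 1 and logarithmic above it. Points are libraries in the authors' 7 groups (ON, olfactory nerve; oONL and iONL, outer and inner ONL; TN, trigeminal nerve), and bars give the mean and SD, cut off at 0; the 3 trigeminal libraries sit between 810 and 913 CPM for Gfra3, above every other library.

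Gdnf, the founding ligand of the family, was highest in the E13.5 olfactory nerve, at a lowest, median and highest value of 3.45, 11.48 and 14.5 CPM over 7 libraries. The 4 libraries of E11.5 olfactory nerve had 1.48, 0, 1.87 and 0 CPM, and the 4 of E16.5 olfactory nerve had 0.186, 2.35, 1.04 and 0.665 CPM. No library of either stage reached the lowest E13.5 value. Gdnf rose from E11.5 to E13.5 by a log2 fold change of 3.62 ± 0.72 (SE; edgeR quasi-likelihood test, adjusted p = 0.00108) and fell by 3.26 ± 0.74 on the log2 scale from E13.5 to E16.5 (adjusted p = 0.00361). By label, the first difference was 1.33 (adjusted p = 0.383) and the second -3.05 (adjusted p = 0.0353). The first was 4.33 without the library labelled E13.5_ONL4, which the authors averaged as E11.5 olfactory nerve, and the second -4.01 without E16.5 olfactory nerve replicate 2; both stayed past the threshold.

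In the E13.5 ONL the 5 libraries had 2.21, 2.95, 3.25, 5.40 and 4.73 CPM of Gdnf, which overlapped the nerve. The log2 difference from the E13.5 olfactory nerve was -1.44 ± 0.66 and did not pass the test (adjusted p = 0.115), but passed with the 2 groups alone (adjusted p = 0.00283). At E16.5 Gdnf was lowest in the inner ONL, with 0, 0.301, 0 and 0.422 CPM. It was higher in the trigeminal nerve, with 2.38, 0.722 and 1.54 CPM, by a log2 fold change of 3.00 ± 1.11 (adjusted p = 0.0228). That call was lost without inner ONL replicate 1 or 3 or trigeminal replicate 1, with adjusted p from 0.0645 to 0.0959, and with the earlier libraries grouped by label (adjusted p = 0.0753). Without inner ONL replicate 4 the difference was 3.88.

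Artn encodes artemin, the ligand that prefers GFRalpha3. It was low throughout, with its highest mean, 1.68 ± 0.617 CPM (SD, n = 3), in the trigeminal nerve, where the libraries had 0.973, 2.09 and 1.98 CPM. In the outer ONL its counts were 1, 1, 1 and 2, at or under the 3 counts taken as the floor of a library, so the trigeminal level was at least 8.26-fold higher than that floor (edgeR adjusted p = 0.000409). Artn was also higher in the trigeminal nerve than in the olfactory nerve, by 2.13 ± 0.76 on the log2 scale (adjusted p = 0.0381). The libraries of the 2 nerves did not overlap, but that call was lost without olfactory nerve replicate 2, 3 or 4 or trigeminal replicate 2 or 3, with adjusted p from 0.0806 to 0.116, with the earlier libraries grouped by label (0.0987), and with total count scaling, upper quartile scaling or no filter on low counts (0.0511 to 0.0667). Against the inner ONL, with 0.135, 0.527, 0.236 and 0.603 CPM, the trigeminal level was higher by 2.14 ± 0.77 (adjusted p = 0.0252). This call too was lost without inner ONL replicate 1 or 3 or trigeminal replicate 2 or 3, with adjusted p from 0.0679 to 0.0839, and by label (0.0664).

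From E11.5 to E13.5 in the olfactory nerve Artn rose together with Gdnf, by 2.38 ± 0.64 (adjusted p = 0.00689; by label 1.58, adjusted p = 0.208). At E13.5 it was lower in the ONL than in the nerve by a log2 difference of -2.14 ± 0.66 (adjusted p = 0.0141). The groups overlapped, by label the difference was -1.36 (adjusted p = 0.189), and without the library labelled E13.5_ON1 the adjusted p was 0.0533. The nerve pieces of E11.5 and E13.5 also differed in content, with a mean Sox10 of 321 and 57.4 CPM. The part of content in the rises of Gdnf and Artn was not tested.

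Nrtn (neurturin) and Pspn (persephin) stayed at group means of at most 1.80 and 1.03 CPM, and neither was called in any of the 11 comparisons in the fit of all libraries. Nrtn had 1 library far above the rest of its group, an E13.5 olfactory nerve piece with 135 counts (8.52 CPM), while the other 6 had 0 to 2.40 CPM. Pspn was lowest in the trigeminal nerve, with 0.288, 0.180 and 0.184 CPM, below all 4 olfactory nerve libraries at E16.5 (0.433 to 0.681 CPM), at a log2 difference of -1.41 ± 0.60 (adjusted p = 0.0916; with total count scaling -1.67, adjusted p = 0.0395). For Nrtn the adjusted p between ONL and nerve at E13.5 was 0.0638, and 0.0324 to 0.0423 without any 1 of 5 libraries (those labelled E13.5_ON1, E13.5_ON2, E13.5_ON3, E13.5_ON5 and E13.5_ON6).

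The 250 bases upstream of a RefSeq start are shown for Gdnf and Artn, from RefSeq with the GRCm38.p6 build. These ligand genes were called higher at E13.5 than at E11.5 in the authors' grouping, and neither was called by label. Of the 9 members, 6 had an upstream sequence. Capitals mark a match to any of 3 motifs on either strand. The first, TATAAA, is in 12.3% of 32536 upstream windows of the same length. The next, ACAAAG, is in 16.47% of them. The last, ACAATG, is in 10.5%. Of 2 Gdnf windows, the one printed, at chr15:7809798-7810047 on the plus strand, lies before the more upstream start and holds 1 match to TATAAA. The other, at chr15:7813477-7813726, holds no match to any of the 3 motifs. The Artn window, at chr4:117929764-117930013 on the minus strand, holds no match. A match or its lack describes only these letters.
Gdnf: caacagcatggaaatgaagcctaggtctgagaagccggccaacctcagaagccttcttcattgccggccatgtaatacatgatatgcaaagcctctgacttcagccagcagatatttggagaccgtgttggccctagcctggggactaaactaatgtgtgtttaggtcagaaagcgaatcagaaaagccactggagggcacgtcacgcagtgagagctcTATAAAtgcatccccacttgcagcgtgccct
Artn: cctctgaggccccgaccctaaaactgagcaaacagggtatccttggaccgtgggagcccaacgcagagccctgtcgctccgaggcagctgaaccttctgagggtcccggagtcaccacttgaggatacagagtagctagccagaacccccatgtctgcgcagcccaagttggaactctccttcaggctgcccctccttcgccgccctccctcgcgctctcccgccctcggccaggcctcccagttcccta

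Gfra3, the artemin co-receptor, was the most abundant member in the series and separated the trigeminal nerve from the olfactory system. At E16.5 the 3 trigeminal libraries had 907, 810 and 913 CPM. The 4 olfactory nerve libraries had 83.8, 90.2, 96.3 and 72.5 CPM. In the outer ONL the values were 2.84, 34.6, 45.3 and 17.6 CPM, and in the inner ONL 1.08, 8.28, 2.20 and 4.76 CPM. The trigeminal and olfactory nerves each stood clear of all other E16.5 groups, whereas outer and inner ONL overlapped.

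Gfra3 was 10.2-fold higher in the trigeminal than in the olfactory nerve (log2 3.35 ± 0.53, edgeR adjusted p = 2.62e-05), 34.9-fold higher than in the outer ONL (log2 5.13 ± 0.53, adjusted p = 7.28e-08) and 215-fold higher than in the inner ONL (log2 7.75 ± 0.57, adjusted p = 1.17e-10). Within the olfactory system it was lower in the outer ONL than in the nerve, at a log2 difference of -1.77 ± 0.49 (adjusted p = 0.0108). With the earlier libraries grouped by label this difference no longer passed (adjusted p = 0.0689). It was lower again in the inner than in the outer ONL, at -2.62 ± 0.54 (adjusted p = 0.00105; -3.22 without inner ONL replicate 2). The outer ONL library lowest in Gfra3 (replicate 1) was also lowest in Gfra2, at 3.84 CPM against 12.3 to 13.02 CPM in the other 3, and had the lowest summed level of 7 mesenchyme markers, 2274 CPM against 3789 to 5241 CPM; the part of mesenchyme in these values was not tested.

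Gfra2, the neurturin co-receptor, was high in both nerves and low in the ONL. The E16.5 olfactory nerve libraries had 175, 85.7, 184 and 137 CPM and the trigeminal libraries 189, 184 and 173 CPM. These 2 groups overlapped, with a log2 difference of 0.32 ± 0.41 that did not pass the test (adjusted p = 0.626). Every ONL library was far lower, with 3.84, 12.3, 13.02 and 12.8 CPM in the outer and 13.9, 11.7, 6.83 and 6.09 CPM in the inner part.

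Gfra2 was 13.8-fold lower in the outer ONL than in the olfactory nerve (log2 -3.79 ± 0.39, adjusted p = 1.08e-07) and 15.1-fold lower in the inner ONL (log2 -3.92 ± 0.39, adjusted p = 2.12e-08). Against the trigeminal nerve the outer ONL was lower by 4.11 ± 0.42 (adjusted p = 2.66e-08) and the inner ONL by 4.24 ± 0.42 (adjusted p = 6.47e-09). The 2 parts of the ONL differed by -0.13 ± 0.40 (adjusted p = 0.915).

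Gfra1, the GDNF co-receptor, ran the other way. The outer ONL had 146, 68.3, 136 and 100 CPM and the inner ONL 163, 108, 83.0 and 146 CPM, all above the 37.7, 32.4, 44.3 and 44.4 CPM of the olfactory nerve. The trigeminal nerve had 49.1, 83.5 and 52.7 CPM, with a mean between those groups but libraries that overlapped both parts of the ONL. Its log2 differences from outer and inner ONL were -0.87 ± 0.43 and -1.02 ± 0.43. Neither passed in the fit of all libraries (edgeR adjusted p = 0.158 and 0.0720), though each passed in some alternative fits. Gfra1 was 2.84-fold higher in the outer ONL than in the olfactory nerve (log2 1.505 ± 0.40, adjusted p = 0.00782) and 3.15-fold higher in the inner ONL (log2 1.65 ± 0.40, adjusted p = 0.00205).

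Gfra1 did not differ detectably between outer and inner ONL, at a log2 difference of 0.15 ± 0.40 (adjusted p = 0.896). The difference between trigeminal and olfactory nerve, 0.64 ± 0.44, did not pass the test either (adjusted p = 0.318). In the order of its 7 group means, no neighbouring pair differed by the test.

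Gfra4, the persephin co-receptor, was low, at 2.22 to 5.85 CPM in the 7 group means. Its inner ONL libraries were tight, at 5.52, 5.27, 6.36 and 5.18 CPM, above the 0.557, 2.78, 1.56 and 3.99 CPM of the olfactory nerve. That difference was called (log2 1.32 ± 0.49, adjusted p = 0.0369) but lost without any 1 of 6 of the 8 libraries, with adjusted p from 0.0509 to 0.124, by label (0.0746), and with total count scaling, upper quartile scaling or no filter on low counts (0.0531 to 0.0806). Of the 8 omissions, those of olfactory nerve replicates 2 and 4 kept it.

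Ret, which encodes the signalling receptor, was low everywhere despite the abundant co-receptors. Its highest level was in the E16.5 olfactory nerve, with 2.41, 3.34, 7.22 and 4.93 CPM. The outer ONL had 0, 0.879, 1.07 and 1.77 CPM, the inner ONL 1.88, 1.81, 1.73 and 1.81 CPM, and the trigeminal nerve 0.433, 2.27 and 1.80 CPM. Every olfactory nerve library was above every library of the other 3 E16.5 groups.

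The log2 difference of Ret between outer ONL and olfactory nerve was -2.24 ± 0.84 and did not pass the test in the fit of all 31 libraries (adjusted p = 0.0593). It passed when only the 15 libraries of E16.5 were fitted (-2.31, adjusted p = 0.0150) or only the 2 groups (-2.26, adjusted p = 0.0333), with DESeq2 (adjusted p = 0.0254) and without outer ONL replicate 4 (-2.76, adjusted p = 0.0496). Same-numbered libraries of these 2 groups varied together. With the replicate number as a block the difference was -2.47 in the E16.5 libraries alone (adjusted p = 0.00850) and -2.49 in the 2 groups alone (adjusted p = 0.0154), past the threshold as without the block. Inner ONL and trigeminal nerve differed from the olfactory nerve by -1.31 ± 0.81 and -1.57 ± 0.87 (adjusted p = 0.235 and 0.226), and passed in fits of the groups compared alone (adjusted p = 0.0100 and 0.0463). No neighbouring pair in the order of Ret's 7 group means differed by the test.

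**Figure D2:**
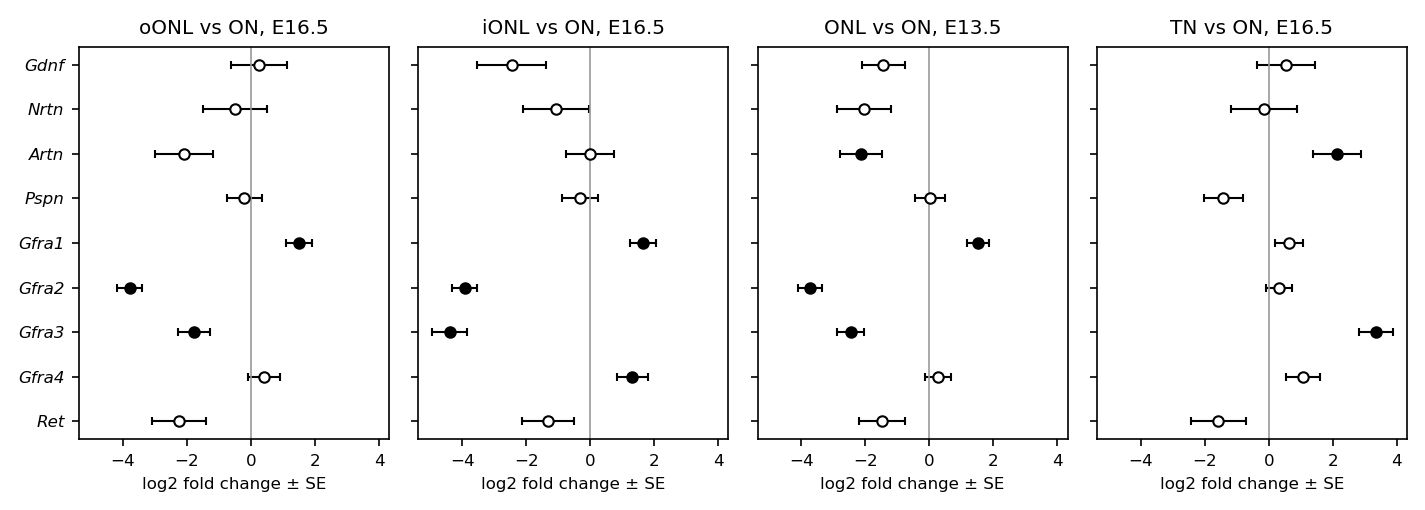
Log2 fold change of each member (points, with bars of 1 SE) in 4 comparisons, on 1 shared axis with filled points for adjusted p under 0.05. Gfra1 lies above 0 and Gfra2 and Gfra3 below 0 in the 3 ONL comparisons, and Gfra3 is the highest point in the trigeminal comparison.

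Counted over the 9 members, 3 passed the test between outer ONL and olfactory nerve, where 22.0% of all tested genes did. Between inner ONL and olfactory nerve 4 passed, against 35.5% of all genes, and between inner and outer ONL 1 did, against 14.1%. Between trigeminal and olfactory nerve 2 passed (23.6% of all genes), between trigeminal nerve and outer ONL 3 (25.8%), and between trigeminal nerve and inner ONL 4 (38.1%). Members whose libraries did not overlap numbered, in the same order, 5 (24.3% of all genes), 6 (36.6%), 3 (18.8%), 6 (33.7%), 4 (34.0%) and 5 (45.3%). With 9 genes, none of these counts says anything particular about the family. The comparisons share groups, so their values are not independent of each other.

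Statements above on which members were abundant or low rest on plain CPM. In this paragraph levels of different genes were compared per length, as CPM divided by exon length in kb. On that scale the 4 co-receptors summed to 504 ± 25.0 CPM per kb in the trigeminal nerve (SD, n = 3), 92.3 ± 14.4 in the E16.5 olfactory nerve, 37.5 ± 10.7 in the outer and 30.1 ± 6.69 in the inner ONL (n = 4 each). Gfra3 made up 85.4% to 88.2% of the sum in the trigeminal libraries. In the E16.5 olfactory nerve Gfra3 made up 42.6% to 59.0% and Gfra2 31.6% to 50.2%. In the inner ONL Gfra1 made up 66.5% to 80.9%. In the outer ONL it made up 36.3% to 89.2%, and in the library where it was lowest (replicate 2) Gfra3 made up more, 50.4%. Ret per kb was between 0.0123% and 0.0707% of the co-receptor sum in the trigeminal libraries and at most 3.33% in any library of the series.

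**Figure D3:**
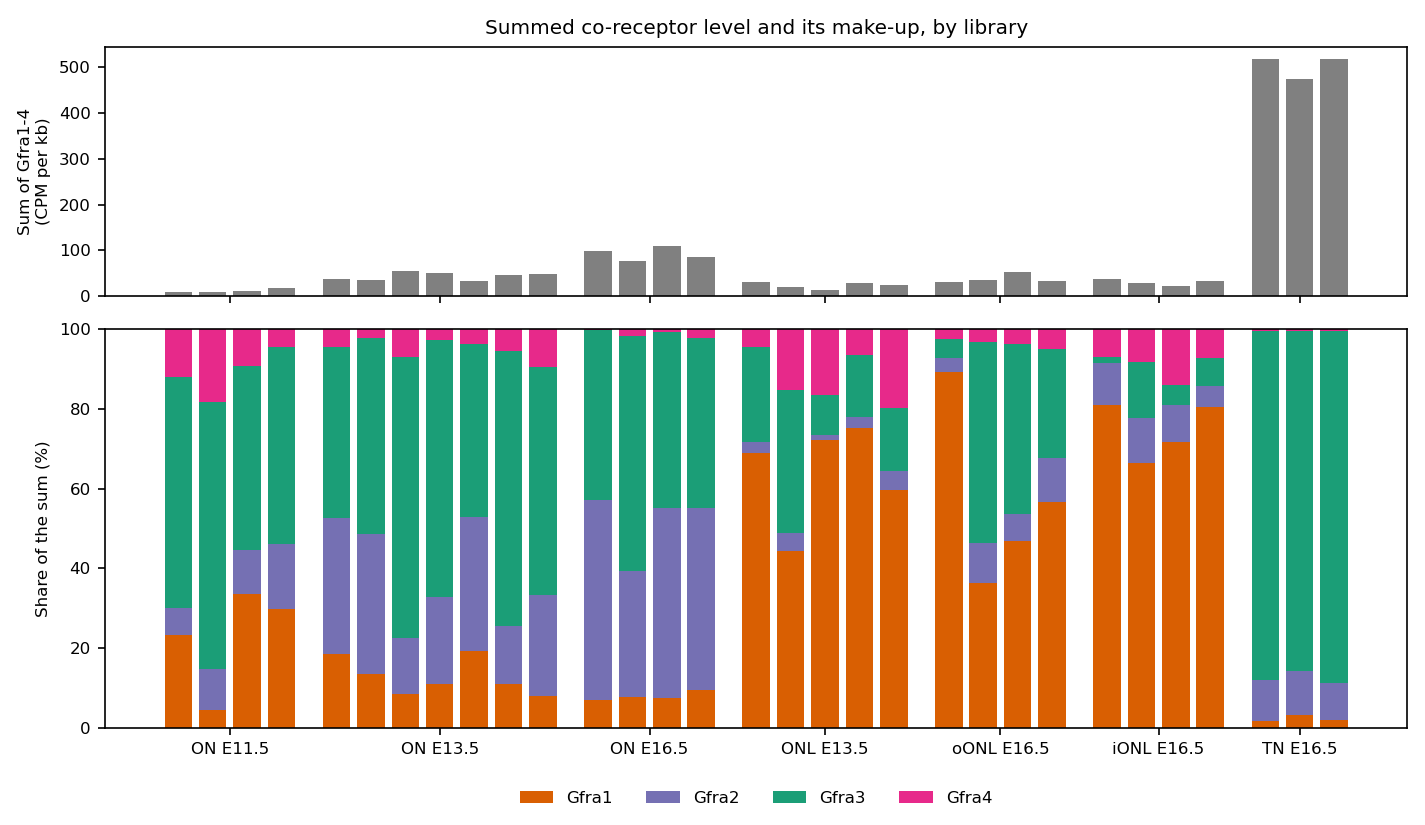
Summed level of the 4 co-receptors per library, in CPM per kb of exon (upper bars, from 0), and the share of each in that sum (lower stacked bars, %). The 3 trigeminal libraries are nearly all Gfra3, the E16.5 olfactory nerve libraries mostly Gfra2 and Gfra3, and Gfra1 is the largest share in every ONL library but 1 (outer ONL replicate 2, with 36.3% Gfra1 and 50.4% Gfra3).

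The pieces differ in how much glial RNA they hold. In bulk pieces, fewer cells of a type and less RNA per cell cannot be told apart. At E16.5 Sox10, the transcription factor that marks these glia, was 646 ± 61.0 CPM in the outer ONL, 550 ± 133 in the inner ONL and 126 ± 37.5 in the olfactory nerve (SD, n = 4 each), and 335 ± 37.0 in the trigeminal nerve (n = 3). Neural crest glia markers summed to 18668 to 32874 CPM in the outer ONL and 20773 to 26084 CPM in the inner ONL. They summed to 1661 to 3906 CPM in the olfactory nerve and 1372 to 1660 CPM in the trigeminal nerve. This list thus put the trigeminal nerve below the olfactory nerve, whereas Sox10 put it above. The ratios below are to Sox10 alone, and whether they hold for the list was not tested. Because Sox10 was itself higher in the ONL, a member lower there could only be lower again relative to Sox10. For Gfra2 and Gfra3 the lower ratio was thus fixed in advance and is no check on glial content. The mean log2 ratio to Sox10 differed by -6.20 (Gfra2) and -4.67 (Gfra3) between outer ONL and olfactory nerve, with every outer ONL library lower.

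Gfra1 and Gfra4, the members called higher in the ONL than in the olfactory nerve, changed direction on this scale. The log2 ratio of Gfra1 to Sox10 was -2.57 ± 0.60 in the outer ONL and -1.62 ± 0.56 in the olfactory nerve, a difference of -0.95 (two-sided exact permutation test, p = 0.0857, adjusted over 21 pairs 0.150). For inner ONL against olfactory nerve the difference was -0.52 for Gfra1 (exact permutation p = 0.286, adjusted 0.333) and -0.78 for Gfra4 (exact permutation p = 0.0571, adjusted 0.109). Of the 21 pairs of member and comparison, none passed after adjustment and 5 had an unadjusted exact p under 0.05. The test permuted libraries as unpaired, although outer ONL and olfactory nerve libraries of the same number were taken as paired. With unpaired libraries, the smallest p that 4 against 4 allow is 0.0286, and 3 against 4 cannot go below 0.0571. After adjustment over the 21 pairs no such p can fall under 0.05, so that none passed was fixed in advance.

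**Figure D4:**
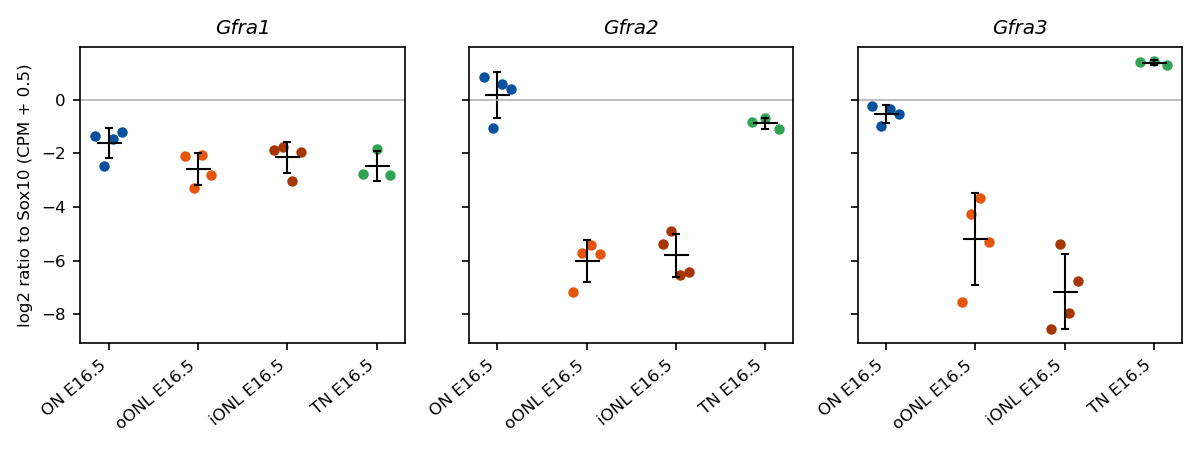
Log2 ratio of Gfra1, Gfra2 and Gfra3 to Sox10 (each as CPM + 0.5) in the E16.5 libraries, as points with the mean and SD. For Gfra3 only the 3 trigeminal libraries lie clearly above 0, with a mean of 1.39, and for Gfra1 the 4 groups overlap.

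Markers of other cell types differed between the E16.5 groups, some in the order of a member and some not, and their part was not tested. The 7 mesenchyme markers summed to 5984 to 8517 CPM in the E16.5 olfactory nerve, 2274 to 5241 in the outer ONL, 473 to 1039 in the inner ONL and 11385 to 12804 in the trigeminal nerve, the same order as Gfra3. Against the order of Gfra3, mural cell markers had a lower median in the trigeminal than in the olfactory nerve (1073 and 1791 CPM), with overlapping libraries. Bone and cartilage markers did too (107 and 1616 CPM). The 6 olfactory epithelium markers summed to 233 to 601 CPM in the E16.5 olfactory nerve and 2.42 to 27.5 CPM over both parts of the ONL. In the trigeminal nerve, where Gfra2 overlapped the olfactory nerve, they summed to 51.3 to 85.1 CPM. The 6 Schwann cell markers were at 1261 to 1763 CPM in the trigeminal nerve and at most 108 CPM in the other E16.5 groups. The 7 measured sensory ganglion neuron markers summed to 198 to 263 CPM in the trigeminal nerve. They summed to 27.0 to 37.7 CPM in the E16.5 olfactory nerve, 7.21 to 23.6 in the outer ONL and 33.5 to 87.0 in the inner ONL. The 5 skeletal muscle markers summed to 80.6 to 129 CPM in the trigeminal nerve and to at most 9.89 CPM in the other E16.5 groups.

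The co-receptor pattern of the ONL was already present at E13.5. The 5 E13.5 ONL libraries had 115, 48.5, 53.5, 114 and 82.2 CPM of Gfra1, all above the 21.2 to 36.9 CPM (median 27.6) of the 7 E13.5 olfactory nerve libraries. For Gfra2 they had 3.04, 3.24, 0.715, 2.70 and 4.16 CPM, against 23.4 to 43.6 CPM (median 39.3) in the nerve. For Gfra3 they had 14.4, 14.3, 2.67, 8.72 and 7.95 CPM, against 28.6 to 77.9 CPM (median 55.5). Other tissue differed between these groups too, and its part was not tested: olfactory bulb neuron markers summed to 798 to 1092 CPM in the ONL and 42.6 to 69.1 CPM in the nerve, and olfactory epithelium markers to 16.1 to 34.9 and 429 to 642 CPM. Glial content also differed, as Gfra1 did: neural crest glia markers summed to 4301 to 6731 CPM in the ONL and 481 to 1064 CPM in the nerve. Mean Sox10 was 142 CPM in the ONL and 57.4 CPM in the nerve. Ratios to Sox10 were not computed at E13.5, so the part of glial content in Gfra1 was not tested. None of the 3 co-receptors overlapped between the groups, as for 19.6% of all tested genes.

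In that comparison 4 members were called, against 31.5% of all genes: Gfra1 at a log2 difference of 1.51 ± 0.34 (adjusted p = 0.000692), Gfra2 at -3.73 ± 0.37 (adjusted p = 1.20e-08), Gfra3 at -2.46 ± 0.43 (adjusted p = 0.000102) and Artn. By label, 1 member was called, against 17.7% of all genes, and Gfra1 took the opposite sign (-1.18, adjusted p = 0.0387), while Gfra2 and Gfra3 stood at -1.35 and -1.10 (adjusted p = 0.0942 and 0.167). The ONL-minus-nerve difference did not pass the test of a change between E13.5 and E16.5 (outer ONL) for any of the 9 members, where 12.3% of all genes did, and no member had an unadjusted p under 0.05. By label 1 member, Gfra1, passed that test (log2 2.69, adjusted p = 0.00389), against 12.5% of all genes.

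Within the olfactory nerve, Gfra2 rose at each step. Its E11.5 libraries had 2.23, 2.93, 4.19 and 10.2 CPM, below every E13.5 library. It rose by 2.93 ± 0.35 on the log2 scale to E13.5 (adjusted p = 1.26e-06; by label 3.75, adjusted p = 0.00106) and by 1.98 ± 0.34 to E16.5 (adjusted p = 4.81e-05; by label 2.22, adjusted p = 0.00459). Without the library labelled E13.5_ONL5, averaged as E11.5 olfactory nerve, the first step was 3.55. Some lists of markers of other tissue were also higher at each later stage and others were not, and their part was not tested. Mesenchyme markers summed to 922 to 1199, 1479 to 1900 and 5984 to 8517 CPM at the 3 stages, and mural cell markers to 99.2 to 139, 152 to 288 and 580 to 2769 CPM. Without a rise at each step, olfactory epithelium markers had medians of 217, 446 and 346 CPM. Bone and cartilage markers had medians of 519, 152 and 1616 CPM, and olfactory receptor neuron markers 1350, 675 and 565 CPM. Mean Sox10 was 321, 57.4 and 126 CPM. Gfra3 had 10.9, 10.7, 9.88 and 17.3 CPM at E11.5 and rose by 2.06 ± 0.44 to E13.5 (adjusted p = 0.00112; by label 2.18, adjusted p = 0.0212). The further difference of Gfra3 to E16.5, 0.75 ± 0.43, did not pass (adjusted p = 0.196; with the 2 groups alone 0.77, adjusted p = 0.0234).

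Gfra1 had 12.1, 1.96, 19.5 and 28.5 CPM at E11.5, and its difference to E13.5 was 0.90 ± 0.36 (adjusted p = 0.0586), while by label it was -1.13 (adjusted p = 0.0499). With total count or upper quartile scaling, a stricter filter, DESeq2, or without the library labelled E13.5_ON4 or E13.5_ONL5, it passed, at 0.93 to 1.36 (adjusted p from 0.00944 to 0.0461). From E11.5 to E13.5, 4 members were called (Gdnf, Artn, Gfra2 and Gfra3), against 36.6% of all genes (17.5% by label), and 3 did not overlap, against 21.2%. From E13.5 to E16.5 in the nerve Gfra2 and Gdnf were called, 2 members against 28.8% of all genes (25.1% by label), and the same 2 did not overlap, against 21.2%.

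From the E13.5 ONL to the E16.5 outer ONL 2 members were called, against 41.9% of all genes (35.2% by label), and only Gdnf did not overlap, against 32.2% (log2 -1.57 ± 0.80, adjusted p = 0.122; with the 2 groups alone -1.59, adjusted p = 0.00785). Gfra2 rose by 1.91 ± 0.42 (adjusted p = 0.000422) and Gfra3 by 1.44 ± 0.49 (adjusted p = 0.0194), with overlapping libraries. By label these differences were -0.23 and 0.29 (adjusted p = 0.810 and 0.749), and Gfra1 differed by 2.76 (adjusted p = 2.45e-05) in place of 0.45. The Gfra3 call was lost without outer ONL replicate 2 or 3 or the library labelled E11.5_ON3, with adjusted p from 0.0607 to 0.129, and with the 2 groups alone (0.0786). Mesenchyme markers summed to 988 to 1822 CPM in the E13.5 ONL and 2274 to 5241 CPM in the outer ONL, and their part was not tested.

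**Figure D5:**
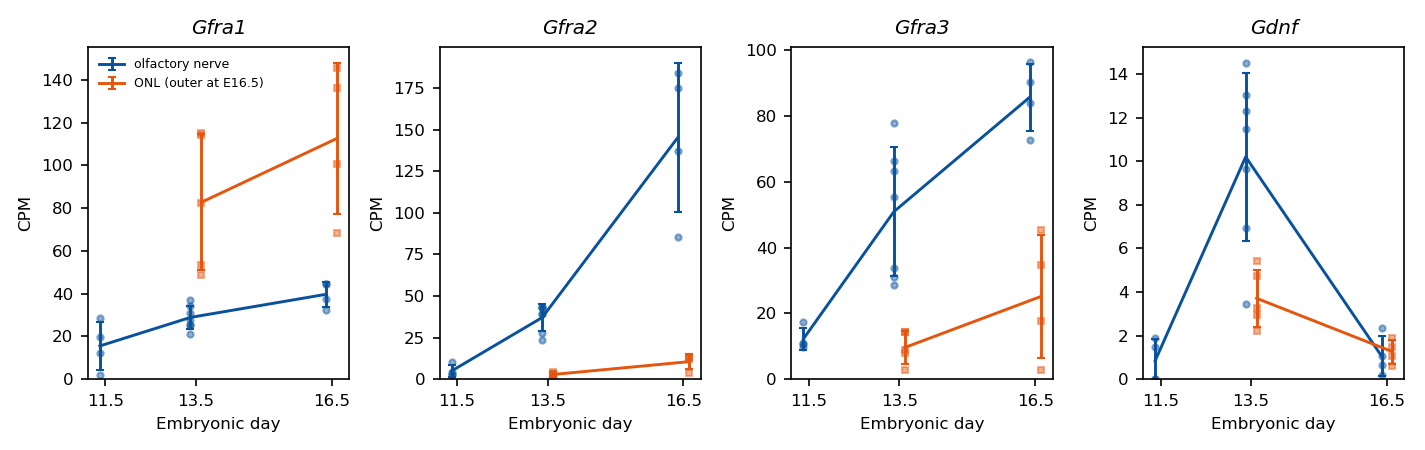
CPM of Gfra1, Gfra2, Gfra3 and Gdnf by embryonic day in the olfactory nerve (circles) and the ONL (squares, outer part at E16.5), with lines through the means and bars of 1 SD, in the authors' grouping. Gdnf peaks at E13.5 in the nerve, at a mean of 10.2 CPM, and Gfra2 climbs from a mean of 4.88 to 146 CPM.

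Other genes of the pathway were described from fixed lists. Between outer ONL and olfactory nerve 22.0% of all tested genes passed in either direction. With so few genes per list, the counts below say nothing particular about the pathway. Of 6 tested other receptors and modulators, 3 were higher and 1 lower in the outer ONL than in the olfactory nerve. Their median log2 difference was 0.08 (0.01 over all genes). Lrig1, an inhibitor of receptor tyrosine kinases that binds RET, was higher by 2.93, and Ncam1, which encodes the adhesion molecule NCAM, by 0.87. Gas1, a GFRalpha-like surface protein gene, was lower at -1.65. Of 16 adaptors and effectors, 2 were higher and 2 lower, led by the adaptor gene Grb7 at -4.26 and the kinase gene Src at 1.72.

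Of 7 ERK-responsive targets, Etv5 was higher by 1.03 and Spry1 lower at -0.84, and 5 did not pass. Among regulators of Ret in neural crest, Sox10 was higher by 2.36, and Pax3 was lower, at 0.0384 against 1.04 CPM on average. Between trigeminal and olfactory nerve, the first 3 of these lists had 2 higher and 1 lower of 6, 5 higher and 2 lower of 16, and 0 higher and 2 lower of 7. In that comparison 23.6% of all genes passed in either direction. Pax3, a transcription factor of neural crest and its derivatives, was higher in the trigeminal nerve, at 19.8 CPM on average against 1.04 CPM in the olfactory nerve.

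Over the 31 libraries, which share the 7 groups, the genes with the pattern most like a member were found by Pearson's r of log2(CPM + 0.5) among 13660 others. For Gfra3 these were Vgll3 (r = 0.942), Deptor (0.938) and Prokr1 (0.935). For Gfra2 they were Rgs6 (0.959), Eln (0.950) and Plscr2 (0.918), for Gfra1 Riox2 (0.913), Vps35 (0.909) and Abat (0.906), for Gdnf Chsy1 (0.862), Zbtb44 (0.855) and Neo1 (0.853), and for Gfra4 Usp13 (0.759), Rab22a (0.743) and Ddah1 (0.733). These are descriptions of shared patterns across groups.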

How the data were processed

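Pieces of nerve were cut from sections under fluorescence, pooled per library and sequenced. The deposited values are raw gene counts: per the labels and methods, the authors aligned reads with TopHat2 2.1.0 to mm10 with Ensembl annotation and counted them with HTSeq, with no strand setting given in the sources used here. No per-sample columns were left out, and 1 row without identifier or values was dropped. Gene symbols came from GENCODE M21. The members and lists were chosen with earlier results of these data known.

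Counts were filtered by group, scaled by TMM and tested with edgeR 4.0.16 (quasi-likelihood) in 1 fit of all 31 libraries, with Benjamini-Hochberg adjustment over 19332 genes and a threshold of 0.05. CPM values use the same scaling. SEs come from the fitted model. Libraries were placed in the groups the authors averaged, and by label as an alternative. The fits were tested on simulated data; a first simulation with a constant dispersion missed its limits and was replaced by one with dispersions estimated from these libraries and larger fold changes, in which DESeq2 made more false calls than its nominal rate, so no call rests on DESeq2 alone. Counts of 3 or fewer per library were taken as the floor, which covers counting error only. Named were all 9 members, up to 4 called genes per other list by size of change, and the 3 genes most like each member at 5 CPM or more; 1 gene of the list of Ret regulators is not reported here. Of the E16.5 groups, only olfactory nerve and outer ONL libraries of the same number varied together over 10631 genes (correlations of 0.242 to 0.528), so only their numbers were taken to pair them. Alternatives were DESeq2 1.42.0, other scalings and filters, fits of fewer libraries, a replicate block and leaving out each library. Ratios to Sox10 used a pseudocount of 0.5 CPM.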

Additional observations from a re-analysis of the deposited data

Results flagged for a closer look

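In 5 of 54 combinations of member and group, 1 library lay far from the others. The nominal chance rate of the rule is about 1 in 20. Its rate for low and uneven counts like these was not determined, so 5 cannot be called more than chance. In the E13.5 olfactory nerve, Nrtn was at 8.52 CPM in 1 library and 0 to 2.40 CPM in the other 6, and Pspn was at 1.22 CPM in another library and 0.222 to 0.520 CPM in the rest. In the E16.5 outer ONL, Gfra2 was at 3.84 CPM in replicate 1 and 12.3 to 13.02 CPM in the other 3. In the E11.5 olfactory nerve, Gfra3 was at 17.3 CPM in 1 library and 9.88 to 10.9 CPM in the other 3. In the E13.5 ONL, Ret was at 5.53 CPM in the shallowest library of the series, from 20 counts, and at 0 to 0.623 CPM in the other 4; without it the log2 difference of Ret from the E13.5 olfactory nerve was -2.92 (edgeR adjusted p = 0.00292) in place of -1.47 (adjusted p = 0.155).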

How the results depend on the processing

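Counts of called members are small and move with the processing. The share of all genes called moves too: between E13.5 ONL and nerve it was 17.7% by label in place of 31.5%. That share is not given for each setting below, so no changed count is a result about the members. Where no value is given the cause was not tested. The outer ONL against olfactory nerve count was 5 with the E16.5 libraries alone (3 in the report). Inner against outer ONL gave 2 with DESeq2 and 2 with E16.5 libraries alone (1). Trigeminal against olfactory nerve gave 1 with upper quartile scaling, no filter, grouping by label and, added after seeing the data, a replicate block in the 2 groups alone (2), 3 with the 2 groups alone (Ret added) and 3 with a replicate block in the E16.5 libraries alone (Gfra4 added), and 1 to 2 without 1 library (1 without olfactory nerve replicate 2, 3 or 4 or trigeminal replicate 2 or 3). Trigeminal against inner ONL gave 2 by label and 2 to 4 without 1 library (4; 2 without inner ONL replicate 1). E13.5 ONL against nerve gave 1 by label and 0 with a replicate block on labels (4), where Gfra1 reversed to -1.18 and -1.50 and Nrtn to 1.59. E16.5 against E13.5 nerve gave 4 with the groups alone and 2 to 4 without 1 library (2; 4 without the library labelled E13.5_ON6). Outer ONL against E13.5 ONL gave 1 by label and 1 to 2 without 1 library (2), with Gfra2 reversed to -0.23. The change of the ONL-minus-nerve difference gave 1 by label (0). From E11.5 to E13.5 Gfra1 reversed to -1.13 by label. Without 1 library, inner-minus-outer ONL differences ran from -0.0286 to 0.293 for Gfra1 and from -0.424 to 0.0428 for Gfra2. The replicate block was fitted only with the E16.5 libraries or the 2 groups alone, and in outer ONL against olfactory nerve those fits call Ret with the block (adjusted p = 0.00850 and 0.0154) and without it (0.0150 and 0.0333). In the E16.5 libraries alone the block ended the call of Artn (adjusted p 0.0385 without it, 0.0538 with it), so that 4 were called in place of 5. Total count scaling moved the median of all genes by -0.244 for trigeminal against olfactory nerve. The 12 calls of Gfra1, Gfra2 and Gfra3 among E16.5 groups kept their direction in every alternative, and 1 of them (Gfra3, outer ONL against olfactory nerve) was lost by label. Ret and the ligands rest on few counts, so small differences were not detectable at this depth.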
